A study of Gossypium hirsutum with 15 samples.

Results

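Fibers of the immature fiber (*im*) mutant and of TM-1 were compared at 19 days post-anthesis (DPA), on 3 of the 15 dual-dye cDNA arrays of a series that runs from 13 to 25 DPA in steps of 3 days. The members were the 3 arrays whose titles set *im* at 19 DPA against TM-1 at 19 DPA, and both lines lie on every array. TM-1 (Texas Marker-1) is the genetic standard line of Upland cotton, *Gossypium hirsutum*, and *im* is its near-isogenic line that carries the immature fiber mutation, both grown in the same field with no treatment. RNA came from pools of plants per stage. The labels name fibers as the tissue, and the methods state that fibers were dissected from the bolls. The design text speaks of ovules with their fibers, and the probes could not be used here to tell ovule RNA from fiber RNA. The arrays were spotted with 29184 cDNA probes made from ovules and fibers. Spots could not be matched to genes from the tables at hand, so probes are called by their spot names, no gene list or cell type marker could be read, and a DEG below is a probe.

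A cotton fiber is a single cell of the seed coat that first elongates with a thin primary wall and then lays down a thick secondary wall that is almost pure cellulose. The passage between these phases is marked by a decline of transcripts for expansion and loosening of the primary wall and by a rise of transcripts for cellulose synthesis and sucrose use. Fibers of *im* are known for thin, poorly filled walls at maturity. The stage of 19 DPA lies where elongation and wall deposition overlap in normal plants, so the 16 and 22 DPA arrays give the states on either side.

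The direction between the lines is not settled by the labels and the methods. The paper's cellulose content and quantitative PCR, measured apart from the arrays, were not used to choose it. The source names, read in channel order, and the material labels both place *im* in Cy5 on replicates 1 and 3 of 19 DPA and in Cy3 on replicate 2, and this order is followed here. The written dye labels would place *im* in Cy5 on all 3 arrays. In the methods, Cy5 marks TM-1 and Cy3 marks *im*, with the dyes exchanged in a dye swap whose arrays are not named. The methods' assignment below takes replicate 2 as the swapped array of each stage, which is an assumption. Every sign given here opposes that assignment, and under it *im* and TM-1 change places in every value of all stages. At 16 and 22 DPA the material labels oppose the source names on all 3 arrays of each stage, and under them the lines change places at those 2 stages only. On the 19 DPA arrays, log2(Cy5/Cy3) across probes correlated at 0.67 between replicates 1 and 3 (11076 probes), at -0.62 between 1 and 2 (14190 probes) and at -0.72 between 2 and 3 (13227 probes). These values describe probes that share arrays and dyes. Of 8 control spots named Y1 to Y8, Y5, Y6 and Y8 changed sign with replicate 2 on all 15 arrays and the other 5 did not. By source names, Y5 was thus higher on the *im* side, and Y6 and Y8 on the TM-1 side, on all 15 arrays. Under the material labels these 3 would change sides at 16 and 22 DPA only. The sources used here do not say what the Y spots hold, and these spots were not used to choose between the labels. Y5 had log2(Cy5/Cy3) of 2.36, -1.43 and 2.74 on replicates 1, 2 and 3, with its brighter dye near saturation on each. Replicate 2 was therefore turned, and all ratios are given as log2(*im*/TM-1), positive where *im* was higher.

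Replicates 1 and 2 stood apart from replicate 3 and from the other stages in their background. The local Cy3 background had medians of 972 and 797 units on replicates 1 and 2, 284.5 units on replicate 3, and 253.5 to 519 units on the 12 arrays of the other stages. The control spots printed with solvent alone had medians of 1195.75 units in Cy5 and 1669.75 units in Cy3 on replicate 1, and 1895.25 and 1855 units on replicate 2. On replicate 3 they had 26.75 units in Cy5 and 145.75 units in Cy3, and on all 13 arrays other than replicates 1 and 2 they had 11 to 28.5 units in Cy5 and 129.5 to 527.5 units in Cy3. Blank spots stayed near 0 on all 15 arrays, at -2 to 4 units in Cy5 and -19 to 10.75 units in Cy3. Of the probes measured, 3979 of 15075 on replicate 1 and 6397 of 18417 on replicate 2 were over the solvent spots of their array, as were all 14363 on replicate 3. Replicate 3 is therefore also shown apart for the counts and for the signals of named probes.

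**Figure D1:**
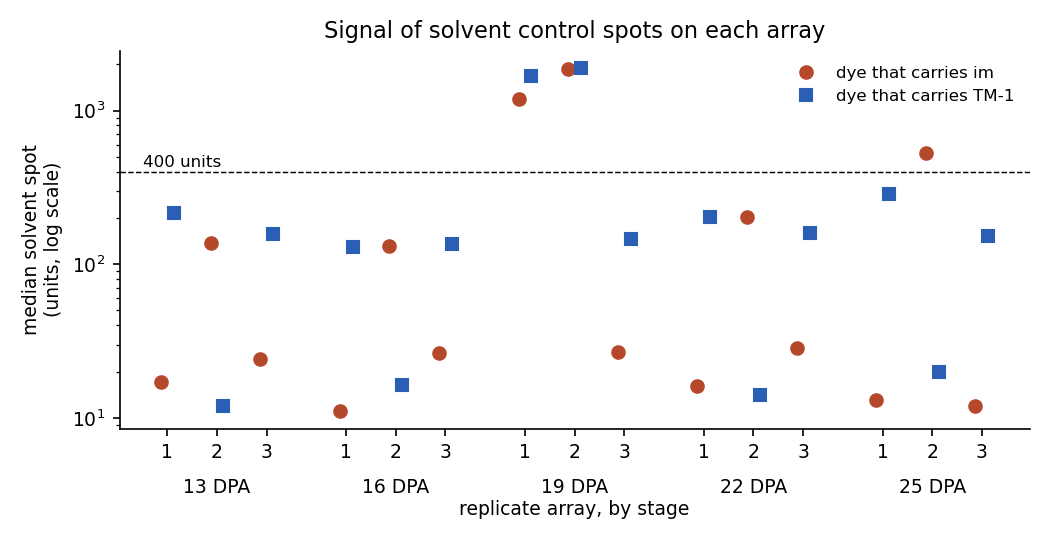
Median signal of the solvent spots on each of the 15 arrays, in units on a log axis, with circles for the dye that carries *im* and squares for the dye that carries TM-1, by source names. Replicates 1 and 2 of 19 DPA lie between 1195.75 and 1895.25 units, whereas the other 13 arrays lie between 11 and 527.5 units.

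At 19 DPA the lines differed at 827 of the 16749 probes tested (4.94%), and more of these were higher in *im* than in TM-1. The *im* side held 522 probes (3.12%) and the TM-1 side 305 (1.82%), so that 63.1% of the DEGs were higher in *im*. Probes higher in *im* had a median difference of 2.62-fold and those higher in TM-1 of 2.32-fold. A probe counted as a DEG at an adjusted p under 0.05 in limma, adjusted over all probes tested, and a fold change of at least 2. Before adjustment 5345 probes had a p under 0.05, and 3458 passed the adjusted threshold at any fold change. With the spots' foreground medians left without background subtraction the count was 396, with 254 higher in *im* and 142 higher in TM-1.

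Most of the differences were seen on every array. Of the 522 probes higher in *im*, 434 were measured on all 3 arrays, and 423 of these were higher in *im* on each. All 245 probes measured on 3 arrays on the TM-1 side were higher in TM-1 on each. The median log2(*im*/TM-1) of the *im* side was 1.44, 1.37 and 1.40 on replicates 1, 2 and 3. The TM-1 side was lower in *im* by medians of 1.18, 1.20 and 1.34 on the log2 scale. These probes were chosen on the same arrays, so the counts with the same direction and the medians describe them and do not test them. Differences were mostly modest: 355 of the *im* side and 252 of the TM-1 side lay between 2 and 3-fold, and 77 and 13 were at 4-fold or more. TM-1 was under 400 units on all 3 arrays at 77 probes of the *im* side, and *im* was so at 37 probes of the TM-1 side, and the fold change of such probes rests in part on values under that limit.

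More DEGs were higher in *im* than in TM-1 in 4 of 5 classes of equal size by signal level, and the sides were alike in the brightest class. In the faintest class, by mean level of both lines, 127 DEGs were higher in *im* and 47 higher in TM-1. In the next 3 classes the numbers were 86 and 42, 104 and 52, and 97 and 55. In the brightest class they were 108 and 109. Probes with at least 1 line over the solvent spots on each of replicates 1 and 2 made up 187 of the 522 DEGs of the *im* side (35.8%). On the TM-1 side they made up 131 of the 305 (43.0%), against 23.0% of all probes tested. Both lines were over on both arrays at only 65 and 82 of these DEGs, and at 2898 of the 16749 probes tested. Neither line was over on either array at 226 (43.3%) and 102 (33.4%), against 61.1% of all probes tested. When the limit for faint spots was raised to the solvent spots of each array, a setting chosen after the solvent values had been seen, 462 of 6162 probes were DEGs, 262 higher in *im* and 200 higher in TM-1, and 425 of these were among the 827. With the solvent signal subtracted there were 1118 DEGs among 5366 probes, 609 and 509, of which 411 were among the 827. The *im* side was the larger in both, by a smaller margin, and the part of the solvent signal in the difference between the sides was not tested.

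Replicate 3 had a lower background than replicates 1 and 2 and gave the same directions. The fit without it called 655 of 14190 probes (4.62%), 446 higher in *im* and 209 higher in TM-1, and 633 of these were measured on replicate 3. There 629 of the 633 (99.4%) differed in the direction called, and 451 did so by at least 2-fold. The median difference on replicate 3 was 1.29 on the log2 scale, against 1.33 in the fit that had not used it. Without replicate 1, 870 probes were called (6.58%), and 730 of the 759 measured on it (96.2%) went in the direction called there. Without replicate 2, 796 were called (7.19%), and 778 of 786 (99.0%) did so. All 29 probes that went the other way on replicate 1 were called higher in *im*. With replicate 3 as the only array of the stage, and on the assumption that it varied like the arrays of other stages, 1132 of 14363 probes were DEGs (7.88%), with 685 higher in *im* and 447 higher in TM-1, and 599 of them were among the 827.

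**Figure D2:**
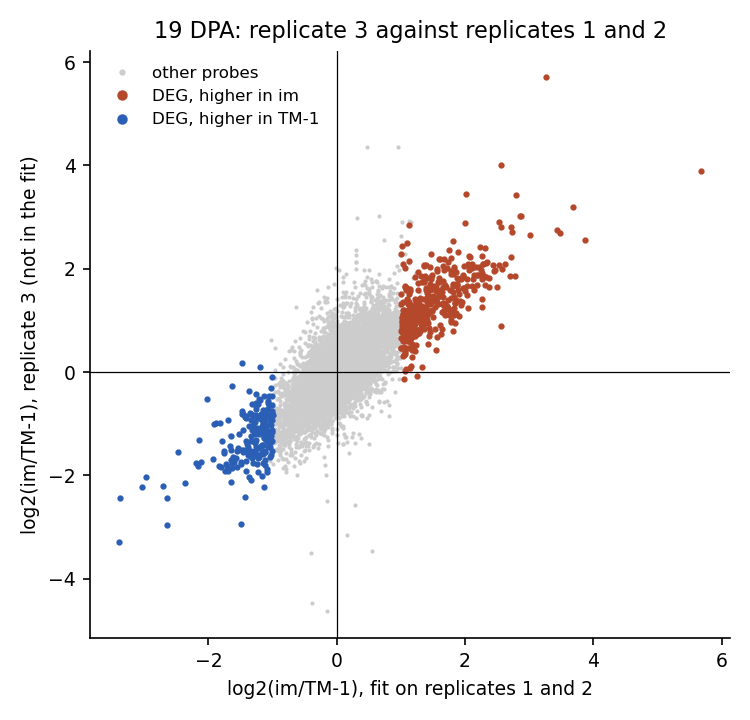
log2(*im*/TM-1) of each probe on replicate 3 (vertical axis) against that of the fit on replicates 1 and 2 (horizontal axis), with the 633 DEGs of that fit in colour, higher in *im* at the right and higher in TM-1 at the left, and other probes in grey. Of the coloured points, 629 lie on the same side of 0 on both axes.

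Probe 384P53_G_05 was 6.27-fold higher in *im*, the largest difference on that side among the 196 DEGs with both lines at 400 units or more on all 3 arrays. It gave 3116, 5497 and 7167 units in *im* on replicates 1, 2 and 3, and 447, 1123.5 and 1025 units in TM-1. The ranges did not overlap, though the TM-1 signal was under the solvent spots on replicates 1 and 2. Its log2 ratio was 2.65 ± 0.18 (SD, n = 3 arrays), with an adjusted p of 4.5e-07 in limma. In both lines the median signal of this probe was lower at each later stage up to 22 DPA. By source names it had medians, from the earliest stage to the latest, of 24828, 13552, 5497, 596 and 457.5 units in *im*, and of 11871.5, 3557, 1025, 446 and 508 units in TM-1. The values at 19 DPA thus lay on the way down, and the log2 ratio at 22 DPA was 0.54 ± 0.51 (SD, n = 3 arrays).

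Probe 384P76_H_09 was 5.37-fold higher in *im* at 19 DPA and, by source names, showed the opposite difference at the stages before and after. It had 3476, 5065.5 and 6698 units in *im* and 402, 1059 and 1843 units in TM-1 on replicates 1, 2 and 3. The *im* signal was the higher on each array, and limma gave a log2 ratio of 2.42 (SD 0.57, n = 3 arrays) at an adjusted p of 9.96e-07. Replicate 3, at 1.85, had the smallest ratio. At 16 DPA the mean log2 ratio had been -0.83, and at 22 DPA it stood at -0.64. Both change sign under the material labels. At 13 and 25 DPA, where the material labels do not oppose the source names, the mean was -1.05 and -0.48. By source names, the signal of TM-1 had medians of 9079 units at 16 DPA and 2742 units at 22 DPA. It was lowest at 19 DPA, with a median of 1059 units, and was under the solvent spots on replicates 1 and 2.

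On the TM-1 side, probe 384P40_C_18 had the largest difference of the 179 DEGs with both lines at 400 units or more. Its signals were 1556, 2341.5 and 1627 units in *im* and 14838, 27038 and 15722.5 units in TM-1 on replicates 1, 2 and 3, a 10.2-fold difference with hardly any spread. The log2 ratio was -3.36 ± 0.05 (SD, n = 3 arrays), with an adjusted p of 1.13e-07 in limma. At 13 DPA neither line reached 400 units on any array. At 22 DPA the signals were 24544, 11294 and 21894 units in *im* and 24985, 16393.5 and 25938.5 units in TM-1, a mean log2 ratio of -0.51, and at 25 DPA the mean was 0.03. The mean normalized log2 level was 8.23 in *im* and 9.87 in TM-1 at 16 DPA (n = 2 arrays), 11.12 in *im* and 14.48 in TM-1 at 19 DPA, and 14.28 in *im* and 14.79 in TM-1 at 22 DPA (n = 3 arrays each). The lines at 16 and 22 DPA follow the source names.

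Probe 384P39_I_09 was 5.96-fold higher in TM-1. It had 478, 1142.5 and 1117.5 units in *im* and 2508, 8704.5 and 6073 units in TM-1, and the ranges were well apart. The log2 ratio was -2.58 ± 0.18 (SD, n = 3 arrays), with an adjusted p of 4.06e-07 in limma, and *im* was under the solvent spots on replicates 1 and 2. The difference was as large at 16 DPA by source names, at -2.95 ± 0.12 (SD, n = 3 arrays), and was -0.06 ± 0.08 (SD, n = 3 arrays) at 22 DPA. The 4 probes kept their direction and passed the thresholds in each of the other settings run, apart from those that reassign dyes. Over these, 384P53_G_05 had log2 ratios of 2.09 to 4.15, 384P76_H_09 of 1.85 to 3.96, 384P40_C_18 of -4.86 to -3.11 and 384P39_I_09 of -5.60 to -2.11.

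**Figure D3:**
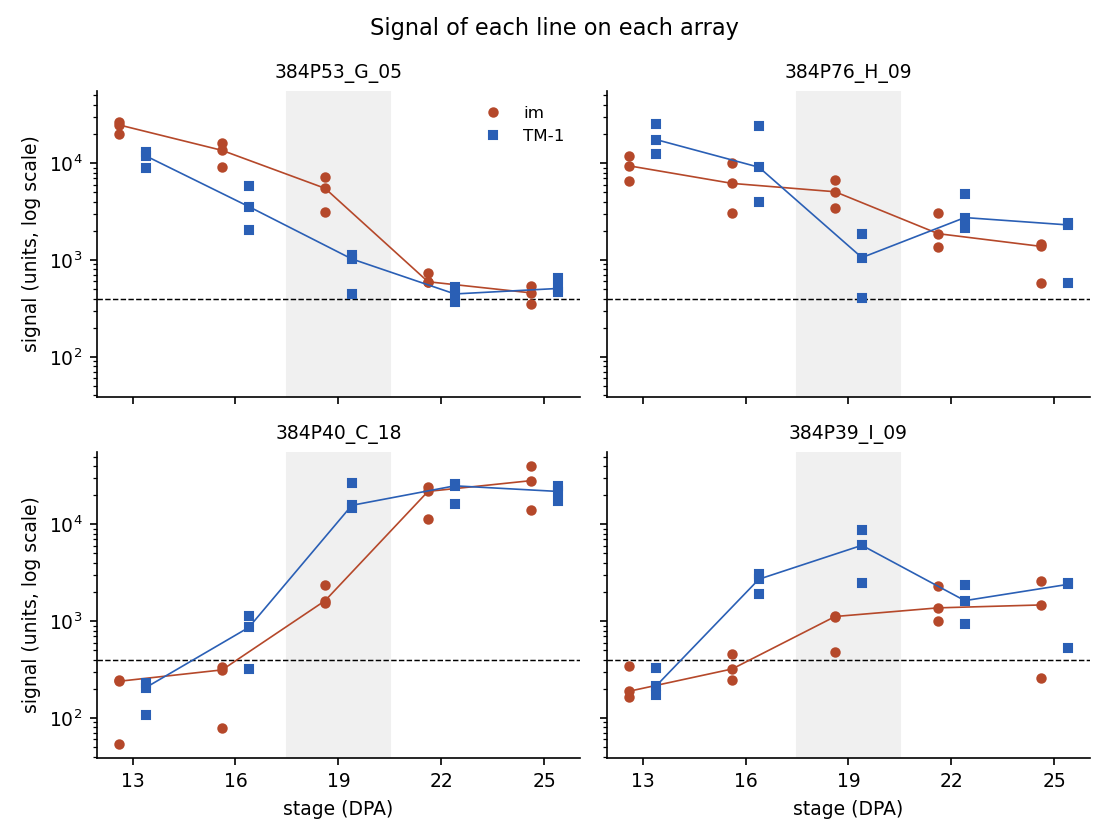
Background-subtracted signal, in units on a log axis, on each array of the 5 stages, of the 2 DEGs per direction with the largest fold change at 19 DPA among those with both lines at 400 units or more and the same direction on all 3 arrays, with *im* as circles left of TM-1 as squares and lines through the medians. At 19 DPA (shaded) the *im* values lie above those of TM-1 in the upper panels and below them in the lower panels, and the dashed line marks 400 units. Lines are assigned by source names, and the material labels exchange them at 16 and 22 DPA.

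The sign of the difference at 19 DPA followed the course of a probe across the stages. Probes whose signal was lower at 22 than at 16 DPA were mostly higher in *im* at 19 DPA, and probes whose signal was higher at 22 DPA were mostly higher in TM-1. For this, 12712 probes were placed by the mean level of both lines together on the arrays of 16 and 22 DPA. This mean is taken over none of the 19 DPA arrays, although these entered the common Aquantile scaling and the probes had to be tested at 19 DPA. It does not depend on which line is which at 16 and 22 DPA, although the methods' assignment would turn the result at 19 DPA. Of 257 probes that were lower by 4-fold or more at 22 DPA, 97.7% were higher in *im* at 19 DPA and 2.33% higher in TM-1, and 136 were DEGs higher in *im* and 0 were DEGs higher in TM-1. Their median log2(*im*/TM-1) was 1.05, with 1.13, 1.10 and 1.04 on replicates 1, 2 and 3. Of 1235 probes lower by 2 to 4-fold, 125 were DEGs higher in *im* and 0 higher in TM-1, with a median of 0.37. At an unadjusted p under 0.05 in limma, 224 probes of the first class were higher in *im* and 1 higher in TM-1, and 629 of the second were higher in *im* and 18 higher in TM-1.

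Probes with the opposite course ran the other way, less uniformly. Of 223 probes higher at 22 DPA by 4-fold or more, 10 were DEGs higher in *im* and 62 DEGs higher in TM-1, and the median log2(*im*/TM-1) was -0.56, with -0.42, -0.48 and -0.68 on replicates 1, 2 and 3. Of 924 probes higher by 2 to 4-fold, 10 were DEGs higher in *im* and 98 higher in TM-1, with a median of -0.37. The 10073 probes less than 2-fold apart had a median of 0.01, with 100 DEGs higher in *im* and 84 higher in TM-1. Over all 12712 probes, 3.00% were DEGs higher in *im* and 1.92% DEGs higher in TM-1. The classes were made after other results were known and are a description with no test.

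**Figure D4:**
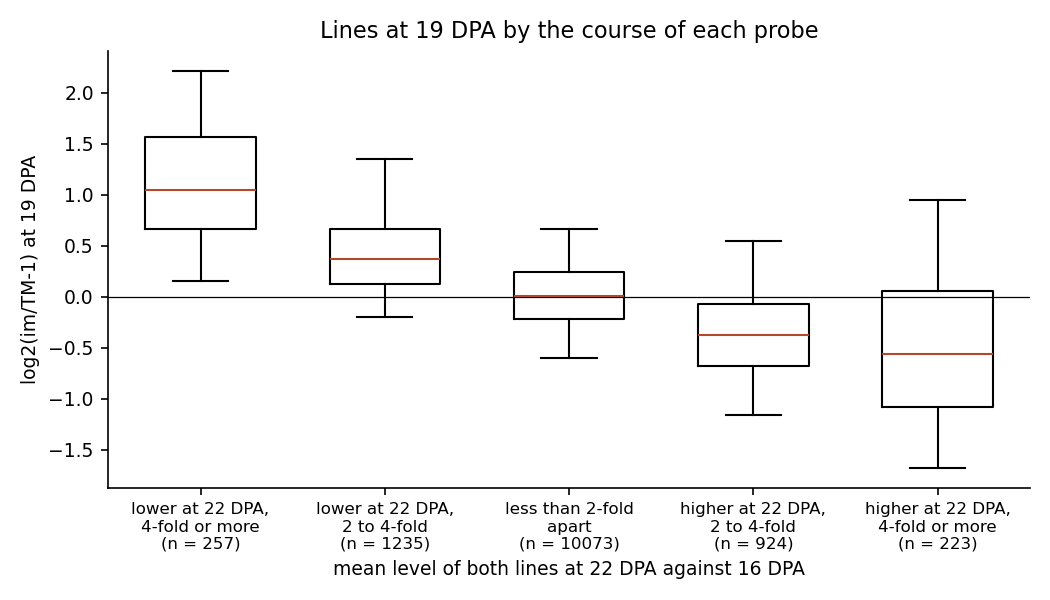
log2(*im*/TM-1) at 19 DPA (vertical axis) of probes in 5 classes by their mean level in both lines at 22 DPA against 16 DPA (horizontal axis). Boxes give medians and quartiles and whiskers the 5th and 95th percentiles of probes, and the medians run from 1.05 in the class lower by 4-fold or more at 22 DPA to -0.56 in the class higher by 4-fold or more.

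The levels of the lines taken one by one come from the same arrays and ratios, so they describe the same order and do not test it. Among DEGs of 19 DPA measured at 16 and 22 DPA too, the 244 on the TM-1 side had median normalized log2 levels in *im* of 9.89 at 16 DPA, 10.59 at 19 DPA and 11.55 at 22 DPA, and in TM-1 of 10.21, 11.91 and 11.62. The *im* median thus lay nearer to that of TM-1 at 16 and 22 DPA than at 19 DPA, where the probes were chosen. The 381 on the *im* side had medians in *im* of 11.83, 11.35 and 10.23 at 16, 19 and 22 DPA, and in TM-1 of 11.59, 9.91 and 9.79. On replicate 3 alone the medians at 19 DPA were 10.43 in *im* and 11.81 in TM-1 on the TM-1 side, and 11.43 in *im* and 9.97 in TM-1 on the *im* side. Over all 12712 probes the *im* medians were 10.59, 10.43 and 10.50 at these stages, and those of TM-1 10.60, 10.38 and 10.47. The levels at 16 and 22 DPA follow the source names.

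Differences seen at 19 DPA were smaller on the arrays of the other stages, as choosing probes by their size at 19 DPA would give by itself. The ratios of the other stages did not enter those of 19 DPA and bore on the choice only through the shared spread. The DEGs of the *im* side had median log2(*im*/TM-1) of -0.13 at 13 DPA, 0.31 at 16 DPA, 0.46 at 22 DPA and 0.22 at 25 DPA, against 1.39 at 19 DPA. At 22 DPA 309 of the 385 measured were still higher in *im* by source names. The TM-1 side had medians of 0.10, -0.50, -0.24 and -0.08 at 13, 16, 22 and 25 DPA, against -1.21 at 19 DPA. Medians over all probes tested at 19 DPA stayed between -0.03 and 0.03 at each stage. Of the 827 DEGs, 769 were tested at 16 DPA and 673 at 22 DPA. With 16 DPA, 144 of those 769 were shared in the same direction, 17.4% of all 827 and 9.50% of the 1516 DEGs of that stage. Another 40 were DEGs in the opposite direction. With 22 DPA, 107 of those 673 were shared in the same direction, 12.9% of all 827 and 18.7% of the 571 of 22 DPA, and 23 in the opposite direction. These overlaps were not compared with the share of all probes called at each stage, so they do not show more sharing than that share would give. Under the material labels the shared and opposite counts change places at both stages, and the medians at 16 and 22 DPA change sign.

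**Figure D5:**
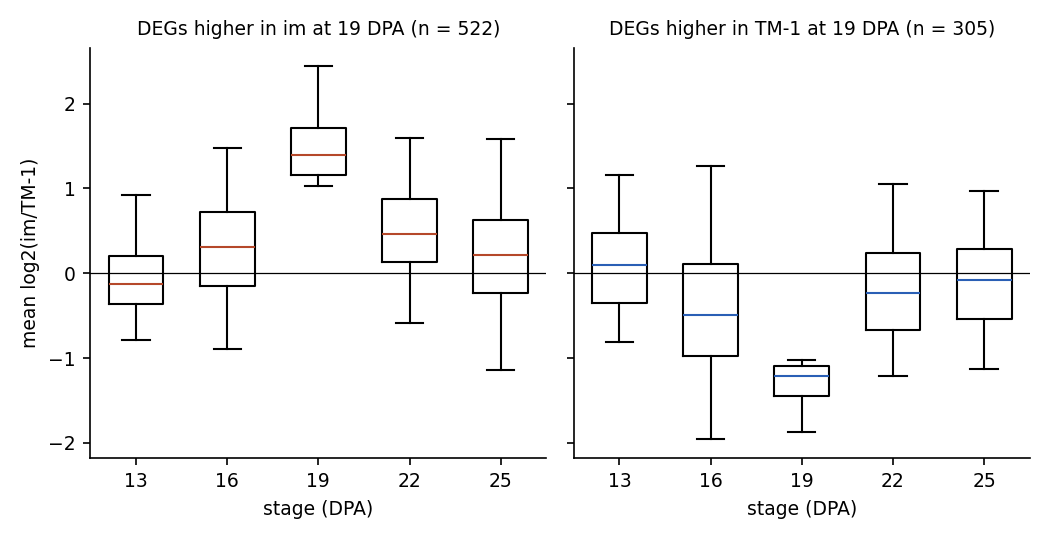
Mean log2(*im*/TM-1) at each of the 5 stages of the 522 DEGs higher in *im* at 19 DPA (left) and of the 305 higher in TM-1 (right), as medians, quartiles and the 5th and 95th percentiles of probes measured at that stage. The medians, 1.39 and -1.21 at 19 DPA, where the probes were chosen, lie between -0.50 and 0.46 at the other stages by source names.

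Whether the difference between the lines changed from 16 to 19 DPA was tested as a shift of log2(*im*/TM-1). It shifted by at least 2-fold at 1535 of 13789 probes (11.1%), towards *im* at 956 (6.93%) and towards TM-1 at 579 (4.2%). Probes that shifted towards *im* had a median of 0.59 at 19 DPA, against -0.81 at 16 DPA, and at 672 the sign changed. Those that shifted towards TM-1 had a median of -0.37 at 19 DPA, against 0.99 at 16 DPA, and the sign changed at 417. When 19 DPA was represented by replicate 3 alone, 1248 probes shifted, 837 towards *im* and 411 towards TM-1, and 924 (60.2%) of the 1535 were among them. Under the material labels the count was 2970, with 1720 towards *im* and 1250 towards TM-1.

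Probe 384P49_P_18 shifted towards *im* by 3.44 ± 0.33 (SE; adjusted p = 1.76e-05 from limma), a 10.9-fold change of the ratio. At 19 DPA it was bright in both lines, with 31498.5, 34262 and 21352 units in *im* and 24525.5, 21830 and 19886.5 units in TM-1. At 16 DPA it had 2866, 5139 and 3876 units in *im* and 22008, 58959 and 24451 units in TM-1, so the lines were far apart there and overlapped at 19 DPA. It did not reach 400 units in either line at 13 DPA. Probe 384P45_I_07 shifted by 3.28 ± 0.15 (SE; adjusted p = 5.24e-08 from limma). Its signals at 19 DPA were 16632, 21920 and 14051 units in *im* and 3658, 6655 and 3928 units in TM-1. The log2 ratio there, 1.89 ± 0.11 (SD, n = 3 arrays), compared with -1.39 ± 0.04 (SD, n = 3 arrays) at 16 DPA. At 22 DPA its spot had no measurable signal on replicate 3.

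In the other direction, probe 384P16_E_08 shifted towards TM-1, by -3.44 ± 0.27 (SE; adjusted p = 2.97e-06 from limma). It had 625, 1225 and 1100 units in *im* and 1056.5, 2198 and 2133.5 units in TM-1 at 19 DPA, where *im* was under the solvent spots on replicates 1 and 2 and TM-1 on replicate 1. With the solvent signal subtracted too few arrays measured it for a test. At 16 DPA it had 5094.5, 3872 and 3230 units in *im* and 692, 691 and 514 units in TM-1. Probe 384P45_G_04 shifted by -3.26 ± 0.20 (SE; adjusted p = 3.2e-07 from limma). It gave 1788, 2477 and 3641 units in *im* and 3645, 6717.5 and 9862 units in TM-1 at 19 DPA, and 2405, 2952 and 5151 units in *im* and 473, 935 and 1284 units in TM-1 at 16 DPA. The *im* signals overlapped between the stages, and those of TM-1 did not.

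From 19 to 22 DPA the difference between the lines shifted at 656 of 13118 probes (5%), towards *im* at 361 (2.75%) and towards TM-1 at 295 (2.25%). The median log2(*im*/TM-1) of those shifting towards *im* was -0.90 at 19 DPA and 0.49 at 22 DPA, and 300 changed sign. That of those shifting towards TM-1 was 1.05 at 19 DPA and -0.38 at 22 DPA, and 192 changed sign. Both shifts use the arrays of 19 DPA and are not independent of each other. When 19 DPA was represented by replicate 3 alone, 514 probes shifted, 318 towards *im* and 196 towards TM-1, and 371 (56.6%) of the 656 were among them. Under the material labels the count was 2055, with 839 towards *im* and 1216 towards TM-1.

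Probe 384P58_O_22 shifted towards *im* after 19 DPA by 3.10 ± 0.17 (SE; adjusted p = 1.76e-07 from limma). Its signals at 19 DPA were 3237, 5936 and 3758 units in *im* and 7806.5, 19722 and 12218 units in TM-1, and at 22 DPA 6615.5, 10527 and 13651 units in *im* and 1878.5, 4432 and 4362.5 units in TM-1. TM-1 was the higher line at 19 DPA and *im* at 22 DPA, with no overlap at either stage. Probe 384P56_M_23 shifted by 2.90 ± 0.17 (SE; adjusted p = 2.48e-07 from limma), with 2850, 2423.5 and 1148.5 units in *im* and 8552, 9801 and 4125 units in TM-1 at 19 DPA, and 2534.5, 3452 and 4772 units in *im* and 1120, 1824 and 2090 units in TM-1 at 22 DPA. At 16 DPA the mean log2 ratio was 0.22 ± 0.08 for 384P58_O_22 and 0.12 ± 0.29 for 384P56_M_23 (SD, n = 3 arrays each).

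Towards TM-1, probe 384P76_H_09, described above for its peak in the ratio at 19 DPA, shifted by -3.06 ± 0.27 (SE; adjusted p = 9.81e-06 from limma). Probe 384P24_G_05 shifted by -2.71 ± 0.36 (SE; adjusted p = 0.000556 from limma). It was faint at 19 DPA, with 646.5, 1055 and 708 units in *im* and 440, 929 and 586 units in TM-1, under the solvent spots in both lines on replicates 1 and 2, and could not be tested with the faint limit raised to the solvent spots or with the solvent signal subtracted. At 22 DPA it had 1410.5, 672 and 575.5 units in *im* and 6272.5, 3833 and 2967 units in TM-1. The *im* signals of the 2 stages overlapped, and those of TM-1 did not.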

How the data were processed

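Dual-dye cDNA arrays were scanned with a LuxScan 10K/A scanner and read with LuxScan 3.0. The authors deposited, per array, spot and background intensity in Cy5 (635 nm) and Cy3 (532 nm), a quality flag (a score per spot) and a value table of log2 ratios, whose columns correlated with the intensities at 0.959 to 0.996 and had medians of -0.025 to 0.010. The methods name removal of spots under 400 units, LOWESS within arrays and Aquantile across arrays, and do not say which of these steps the table includes. Among tools, the submitters' processing notes list R 2.12.2 and limma 3.4.5.

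Here limma 3.58.1 in R 4.3.3 was used on the deposited background-subtracted median intensity. Values under 50 units were raised to 50, and spots with both dyes under 400 units were left out. Loess within arrays and Aquantile between arrays followed. Stages entered the model as 5 coefficients fitted to the 15 arrays jointly, with a common spread. Probes measured on at least 2 arrays of each stage compared were tested with Benjamini-Hochberg adjustment. The scripts were tested on simulated data. Precision is limited by how many arrays there are.

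The sources name 3 biological replicates per stage and, elsewhere, a pair of biological replicates with a dye swap, so p-values may measure technical spread in part. The probes named are, per direction, the 2 DEGs with the largest fold change that went the same way on all 3 arrays, and the 2 probes with the largest shift whose arrays of both stages did not overlap, with both lines at 400 units or more on all arrays compared. The members and lists were chosen with earlier results of these data known. Alternatives covered background, filter, normalization, dyes, replicates and samples.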

Additional observations from a re-analysis of the deposited data

Results flagged for a closer look

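The shift of log2(*im*/TM-1) was tested between stages itself, and it passed at 1535 probes between 16 and 19 DPA and at 656 between 19 and 22 DPA. The named probes among them shifted by 3.44 (384P49_P_18), 3.28 (384P45_I_07), -3.44 (384P16_E_08) and -3.26 (384P45_G_04) from 16 to 19 DPA, and by 3.10 (384P58_O_22), 2.90 (384P56_M_23), -3.06 (384P76_H_09) and -2.71 (384P24_G_05) from 19 to 22 DPA. Each of these rests on the source names at 16 and 22 DPA, which the material labels oppose.

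The solvent spots, which are not among the probes compared, gave signal at 19 DPA well over that of the other arrays, with 1195.75 units in Cy5 and 1669.75 units in Cy3 on replicate 1, and 1895.25 units in Cy5 and 1855 units in Cy3 on replicate 2. Another 5 control spots named CM gave 219.75 to 777.25 units in Cy5 on replicate 1 and 409.5 to 1380.75 units on replicate 2, against 7 to 9.75 units on replicate 3. The sources used here do not say what these 5 spots hold.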

How the results depend on the processing

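The counts of DEGs at 19 DPA, of shifts from 16 to 19 DPA and of shifts from 19 to 22 DPA were 827, 1535 and 656. Without background subtraction they were 396, 980 and 419, and with the faint limit raised to the solvent spots 462, 808 and 393. With the dye labels as written, so that replicate 2 is not turned, limma called 0, 0 and 0 probes, with 116, 80 and 47 at an unadjusted p under 0.05. Under the material labels the shifts numbered 2970 and 2055. Leaving out 1 replicate of 19 DPA gave 655 to 870, 1270 to 1457 and 535 to 615. The shares on replicate 3 in the direction called without it were 99.4%, and 96.5% with the solvent signal subtracted. The settings on dyes, solvent, print blocks and replicate 3 alone were chosen after seeing the data, apart from the methods' assignment and a dye term in the model.

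Under the methods' assignment, with replicate 2 taken as the swapped array, the signs turned. The log2 ratios at 19 DPA became -2.65 (384P53_G_05), -2.42 (384P76_H_09), 3.36 (384P40_C_18) and 2.58 (384P39_I_09). The shifts to 19 DPA became -3.44 (384P49_P_18), -3.28 (384P45_I_07), 3.44 (384P16_E_08) and 3.26 (384P45_G_04), and those after it -3.10 (384P58_O_22), -2.90 (384P56_M_23), 3.06 (384P76_H_09) and 2.71 (384P24_G_05). Under the material labels 4 shifts reversed, to -2.89 (384P49_P_18), 1.78 (384P16_E_08), 0.65 (384P45_G_04) and 2.00 (384P24_G_05). A further 3 no longer reached 2-fold, at 0.50 (384P45_I_07), 0.05 (384P58_O_22) and 0.72 (384P56_M_23), and 384P76_H_09 passed at -1.79.

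No label says that a replicate number marks a shared pool or day across stages. Same-numbered deviations correlated at -0.12 to 0.43 over all stages, over 0.1 in 21 of 30 pairs, and at -0.08 to 0.21 between 19 DPA and the stages beside it, over 0.1 in 3 of 6, so the numbers were not taken as pairs. With the replicate number as a block the counts were 880, 1578 and 667. Signal over background limits faint probes on replicates 1 and 2 of 19 DPA most.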

Other observations

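The probes were spotted from source plates whose well is part of the spot name, and DEGs of 19 DPA were spread over these plates. Among the 76 plates, 0% to 11.2% of the probes tested were DEGs, with a median of 5.73%, and the highest share was 16 of 143 probes on plate 384P75. Of the DEGs with a tested probe 2 columns away in the same row of the plate, 42 of 434 (9.68%) had a DEG there, 30 of them in the same direction. At 1, 3, 4 and 6 columns the shares were 4.50%, 6.55%, 4.31% and 7.41%. Of all probes tested, 4.94% were DEGs. These values were read after the results were known and are not tested.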
